A study of Homo sapiens with 8 samples.

Results

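The genes described here are 9 genes of HLA class I antigen presentation, taken by symbol from the deposited gene table of a study of rice extracts in HT-29 cells. They are the heavy chain genes HLA-B, HLA-C, HLA-E and HLA-F, the light chain gene B2M, the peptide transporter genes TAP1 and TAP2, the loading chaperone gene TAPBP and the immunoproteasome gene PSMB9. All 9 symbols were found among 60796 genes, and all 9 passed the filter on low values that 13388 genes passed, an FPKM (fragments per kilobase of gene, scaled to library size) of 1 or more in at least 2 of 8 libraries. HT-29 is a human cell line, long established from an adenocarcinoma of the colon.

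The libraries fall into 4 groups named by the sample titles. The 5-FU drug group was given 5-fluorouracil, a drug that blocks thymidylate synthase. The 74 3NP extract and 76 3P extract groups were given extracts of the rices MRQ 74 and MRQ 76 at their IC50 values, per the labels, and the last group is the control. The labels do not spell out 3NP or 3P. The labels' treatment field names a plant extract for all 8 samples, controls and 5-FU included, so the groups rest on the titles. Each group has 1 library at 48 h and 1 at 24 h. Each treatment's difference was therefore averaged over 48 h and 24 h, with n = 2 libraries a group. The spread behind the p-values is what additive terms for treatment and time leave over. It mixes treatment differences that change between 48 h and 24 h with variation between libraries. The labels tie no library to its own culture, so that variation may be technical.

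HLA class I molecules are shown on the surface of nearly all nucleated cells and carry peptides cut from the cell's own proteins. Peptides are made by the proteasome, whose immunoproteasome form holds PSMB9, PSMB8 and PSMB10 in place of the constitutive catalytic subunits. The TAP1 and TAP2 transporter moves them into the endoplasmic reticulum, where tapasin, the product of TAPBP, helps load them onto a heavy chain bound to beta-2-microglobulin, the product of B2M. HLA-B and HLA-C are classical heavy chains seen by CD8+ T cells and natural killer cells, HLA-E is seen by NKG2 receptors of natural killer cells, and HLA-F is a less variable heavy chain. Many of these genes are known to respond to interferon-gamma and to NF-kB, through short sequence elements near their starts. Loss of class I molecules is known from colorectal tumours, where it limits recognition by T cells.

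The sequences just before the starts of 6 of these genes are shown. Those of HLA-B, HLA-C, HLA-F, B2M and TAP1 hold elements by which this family is best known. That of PSMB9 is shown because the pair TAP1 and PSMB9 shares 1 stretch between its RefSeq starts. All 6 are RefSeq reference sequences of build GRCh38.p14, not those of HT-29. They cover the 250 bases before each start, written 5′ to 3′ on the gene's own strand. RefSeq rows were found for 8 of the 9 genes, and those of TAP2 and TAPBP, which also held matches, are not shown. TAP1 had 2 rows, and the one not shown, chr6:32852762-32853011 on the minus strand, held no match to the motifs. Their places are chr6:31357180-31357429 on the minus strand for HLA-B, chr6:31272093-31272342 on the minus strand for HLA-C, chr6:29723184-29723433 on the plus strand for HLA-F, chr15:44711267-44711516 on the plus strand for B2M, chr6:32853705-32853954 on the minus strand for TAP1 and chr6:32853942-32854191 on the plus strand for PSMB9. Capitals mark the matches to the motifs described after them.
HLA-B: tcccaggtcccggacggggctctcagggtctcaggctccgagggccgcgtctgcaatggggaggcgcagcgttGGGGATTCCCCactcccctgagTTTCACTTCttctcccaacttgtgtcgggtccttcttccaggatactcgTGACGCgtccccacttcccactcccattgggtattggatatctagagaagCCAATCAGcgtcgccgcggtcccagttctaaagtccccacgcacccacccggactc
HLA-C: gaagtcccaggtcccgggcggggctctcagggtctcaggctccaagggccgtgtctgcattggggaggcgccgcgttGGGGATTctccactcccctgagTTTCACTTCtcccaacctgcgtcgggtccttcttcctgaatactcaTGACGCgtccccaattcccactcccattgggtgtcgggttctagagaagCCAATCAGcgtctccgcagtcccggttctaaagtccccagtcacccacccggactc
HLA-F: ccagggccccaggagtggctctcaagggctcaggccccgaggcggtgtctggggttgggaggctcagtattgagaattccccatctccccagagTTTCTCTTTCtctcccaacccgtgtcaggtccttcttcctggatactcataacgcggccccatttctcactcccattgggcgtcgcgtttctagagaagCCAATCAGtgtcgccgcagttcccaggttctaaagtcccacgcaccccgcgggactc
B2M: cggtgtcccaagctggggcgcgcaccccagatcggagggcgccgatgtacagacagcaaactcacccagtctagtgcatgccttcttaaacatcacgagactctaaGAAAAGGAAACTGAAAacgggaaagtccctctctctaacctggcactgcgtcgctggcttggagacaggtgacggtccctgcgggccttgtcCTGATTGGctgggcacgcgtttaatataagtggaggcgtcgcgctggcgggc
TAP1: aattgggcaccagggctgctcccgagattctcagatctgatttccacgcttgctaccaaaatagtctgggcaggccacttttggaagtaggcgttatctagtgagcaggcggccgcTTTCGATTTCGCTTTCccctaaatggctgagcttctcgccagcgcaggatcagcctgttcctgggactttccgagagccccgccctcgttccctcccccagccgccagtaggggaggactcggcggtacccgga
PSMB9: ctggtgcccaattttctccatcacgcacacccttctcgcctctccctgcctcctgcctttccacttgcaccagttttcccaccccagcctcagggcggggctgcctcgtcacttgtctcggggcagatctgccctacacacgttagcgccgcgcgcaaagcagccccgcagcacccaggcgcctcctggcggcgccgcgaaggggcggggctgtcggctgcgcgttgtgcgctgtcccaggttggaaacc

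The motifs were chosen after these sequences were seen and were searched on both strands in all 35116 RefSeq promoters of the same length. The full kappa-B letters, GGGGATT followed by CCCC, a form bound by NF-kB, were in HLA-B alone of the 8 genes, 177 to 167 bases before its start, and in 0.0313% of all promoters. Their first 7 letters, GGGGATT, were also in HLA-C and TAPBP and in 3.19% of all promoters. The interferon-response form GAANNGAAA was in HLA-B, HLA-C and TAP2 and in 6.56% of all promoters, and the longer form, GAAA, any 2 bases and GAAA, which can overlap the shorter one, was in HLA-F, B2M, TAP1, TAP2 and TAPBP and in 3.02%. The letters TGACGC, the core of the X2 box of the class I SXY module, were in HLA-B, HLA-C and TAP2 and in 7.67% of all promoters. The Y box letters CCAATCAG were in HLA-B, HLA-C, HLA-F and B2M, 45 to 57 bases before the start, and in 3.81% of all promoters, while TGACGC and CCAATCAG stood together in HLA-B and HLA-C and in 0.359% of promoters. HLA-B and HLA-C were identical at 89.0% of aligned bases here, HLA-B and HLA-F at 79.8%. The PSMB9 window held no match to these letters. By their RefSeq starts, TAP1 and PSMB9 stand back to back, facing away from each other with 487 bases between them. The window of each thus reaches into that shared stretch. A match of letters is a description and was not tested as a site.

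Of the 9 genes, 8 lie on chromosome 6 and B2M on chromosome 15 in the deposited GRCh38 coordinates. The deposited spans are 31269491 to 31357188 for HLA-B (ENSG00000234745), 31268749 to 31272130 for HLA-C, 30489509 to 30494194 for HLA-E, 29722775 to 29738528 for HLA-F (ENSG00000204642), 44711487 to 44718877 for B2M, 32845209 to 32853978 for TAP1, 32821833 to 32838770 for TAP2, 33299694 to 33314387 for TAPBP and 32844136 to 32859851 for PSMB9 (ENSG00000240065). These spans do not keep to the RefSeq starts above. The HLA-F, TAP1 and PSMB9 windows lie inside the deposited spans of those genes, and the deposited PSMB9 span holds the whole TAP1 span. Several of these genes overlap others. In the GENCODE 29 annotation, whose spans equal the deposited ones for 6 of the 9 genes, 28.5% of the HLA-F exon bases are shared with genes on the other strand, among them HLA-F-AS1 at 0.753 to 1.33 FPKM. The share is 18.9% for HLA-B, mostly with an antisense gene listed at 0 in all 8 libraries, and 32.3% for TAP2, with a same-strand gene at 0.0886 FPKM or less. For TAP1 it is 9.49% and for PSMB9 5.66%. Stretches of 75 bases that also occur in other genes' transcripts made up 30.8% of TAP2, nearly all shared with that same-strand gene, and 2.07% of PSMB9, 1.67% of HLA-E, 1.30% of HLA-C, 1.04% of TAPBP and 0.296% or less of the other 4. The strand setting of the counting is unknown here, so reads of these overlaps are uncertain.

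Between 18141663 and 28048517 reads per library lay on genes, as computed back from FPKM. The fewest reads on any of the 9 genes were 190, for PSMB9, and the most 38880, for B2M. Mitochondrial genes took 6.83% of reads in the 76 3P extract 48 h library and 5.52% in the 5-FU 48 h library, against 3.18% at 48 h and 2.96% at 24 h in the controls, and the 76 3P extract 48 h library listed 26712 genes with any read, where the other 7 listed 23111 to 24665. The label calls the cells enterocytes. All 8 epithelial markers were expressed, from EPCAM to CDX2, while 5 of 6 markers of mature enterocytes stayed under 1 FPKM in all 8 libraries. Of 8 leukocyte markers, 5 stayed under 1 FPKM throughout, PTPRC among them, and 2 were listed at 0 in all 8 libraries. LYZ was at 215 to 601 FPKM and CD14 at 0.671 to 9.83 FPKM.

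In level, B2M ranked first and HLA-E second of the 9 genes in all 8 libraries. FPKM is scaled by the deposited gene length, which for B2M and HLA-B equals all their annotated exon bases, 6079 and 3051. Where the transcripts present are shorter than that, FPKM understates them, so levels between genes are approximate. The means over the 8 libraries were 221 FPKM for B2M (SD 56.8), 152 for HLA-E (SD 47.6), 86.2 for HLA-C (SD 25.9), 58.1 for TAPBP (SD 15.1), 28.5 for HLA-B (SD 18.6), 9.29 for TAP1 (SD 2.06), 7.15 for HLA-F (SD 4.11), 6.62 for PSMB9 (SD 3.04) and 5.41 for TAP2 (SD 0.94). The ranges of all 8 neighbouring pairs in this order overlapped across libraries. Within a library, HLA-C was above TAPBP, TAPBP above HLA-B, and HLA-B above TAP1 in 7 of 8 libraries each, while TAP1, HLA-F, PSMB9 and TAP2 were each above the next in 5 of 8. HLA-B had the widest range over libraries, 2.55 on the log2(FPKM + 1) scale, then HLA-F at 2.04 and PSMB9 at 1.79, and TAP2 the narrowest at 0.64.

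**Figure D1:**
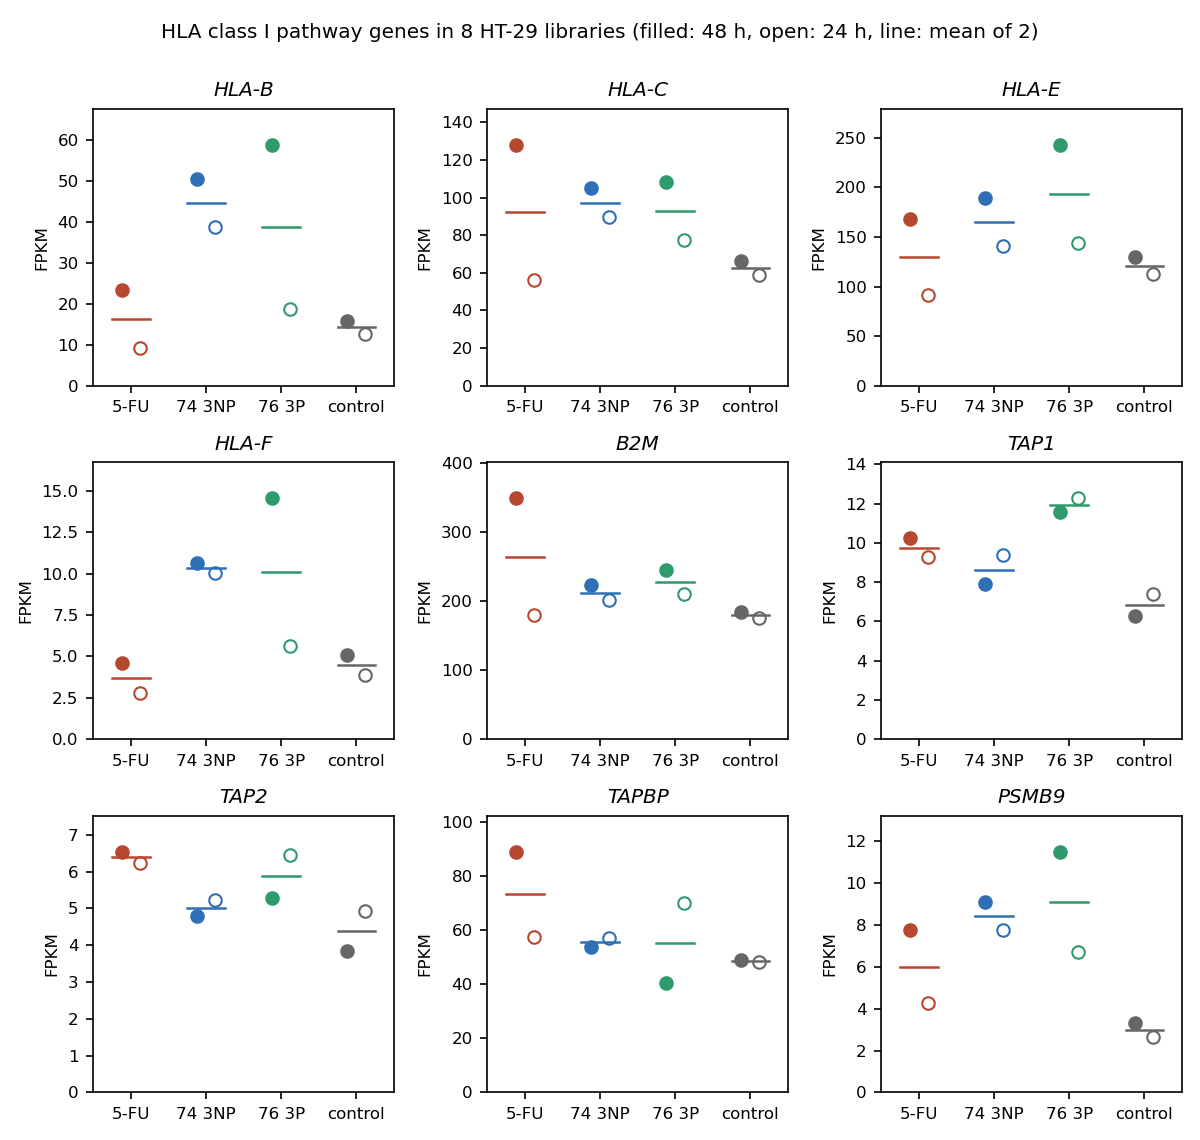
FPKM (vertical axis, linear, from 0) of each of the 9 genes in the 8 libraries, by treatment, with filled points for 48 h, open points for 24 h and a line at the mean of the 2 libraries. HLA-B, HLA-F and PSMB9 lie higher with both extracts than in the controls, and the 76 3P points are far apart for HLA-B, at 58.9 FPKM at 48 h and 18.9 FPKM at 24 h.

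The first comparison set the 74 3NP extract against the control. HLA-B, PSMB9 and HLA-F stood highest relative to control, and the other 6 genes differed less. The fold of control was 3.18 at 48 h and 3.09 at 24 h for HLA-B, 2.76 at 48 h and 2.95 at 24 h for PSMB9 and 2.09 at 48 h and 2.61 at 24 h for HLA-F. HLA-B was at 50.5 FPKM at 48 h and 38.9 at 24 h with the 74 3NP extract, against 15.9 at 48 h and 12.6 at 24 h in the controls. Both extract libraries lay above both controls. Its mean difference on the log2(FPKM + 1) scale was 1.58 (SE 0.33), a fold of 3.00 on that scale, with a limma adjusted p of 0.168. PSMB9, a catalytic subunit that interferon-gamma is known to induce, was at 9.09 FPKM at 48 h and 7.75 at 24 h with the extract, against 3.30 at 48 h and 2.62 at 24 h in the controls, again with no overlap. Its difference was 1.25 (SE 0.21, limma adjusted p 0.105). HLA-F was at 10.6 FPKM at 48 h and 10.0 at 24 h with the extract, against 5.08 at 48 h and 3.85 at 24 h in the controls. The HLA-F groups did not overlap, and the difference was 1.06 (SE 0.27, limma adjusted p 0.231). These are bulk samples, in which more cells with a transcript and more transcript per cell cannot be told apart.

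The other 6 genes lay closer to control with the 74 3NP extract. HLA-C was at 105 FPKM at 48 h and 89.5 at 24 h with the extract, against 66.3 at 48 h and 59.1 at 24 h in the controls, a log2 difference of 0.62 (SE 0.28). HLA-E was at 189.7 FPKM at 48 h and 141 at 24 h with the extract, against 129.9 at 48 h and 112 at 24 h in the controls, a difference of 0.43 (SE 0.24). For both genes the extract libraries were above the controls. B2M stood at 0.24 (SE 0.27), TAP1 at 0.30 (SE 0.19), TAP2 at 0.16 (SE 0.18) and TAPBP at 0.19 (SE 0.31). TAP2 was the 1 gene of the 9 whose extract and control libraries overlapped, with 4.80 FPKM at 48 h and 5.23 at 24 h with the extract, against 3.84 at 48 h and 4.94 at 24 h in the controls.

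Limma passed 0 of the 9 genes for the 74 3NP extract at an adjusted p under 0.05, as it passed 0.0523% of all 13388 genes tested. At an unadjusted p under 0.05 were 3 of the 9, HLA-B, HLA-F and PSMB9, all higher, against 7.01% of all genes that were higher at that level. The edgeR quasi-likelihood test on the recovered reads and limma voom passed 0 of the 9, against 0.0523% and 0% of all genes. Both extract libraries lay above both controls for 8 of 9 genes, against 25.9% of all genes tested. The median log2 difference of the 9 was 0.43, and that of all genes tested was -0.03. Fitted to the 4 libraries of this comparison alone, limma passed 4 of the 9, against 10% of all genes tested (1344 of 13388), with adjusted p-values of 0.00068 for HLA-B, 0.00241 for PSMB9, 0.00512 for HLA-F and 0.0223 for HLA-C. Without the 76 3P extract 24 h library, which is not part of this comparison but of its estimate of spread, PSMB9 passed with a limma adjusted p of 0.0497, as did 0.799% of all genes.

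With the 76 3P extract PSMB9, HLA-B and HLA-F stood highest relative to control, then TAP1 and HLA-E. The folds at 48 h and 24 h lay farther apart than with the 74 3NP extract, a difference that was not tested. HLA-B was at 58.9 FPKM at 48 h and 18.9 at 24 h with the extract, against 15.9 at 48 h and 12.6 at 24 h in the controls, so that the fold of control by reads was 3.71 at 48 h (exact 95% interval 3.48 to 3.97) and 1.50 at 24 h (1.38 to 1.63). Such intervals compare 1 library with 1 library and cover counting error only. The mean HLA-B difference was 1.19 (SE 0.33, limma adjusted p 0.145). HLA-F was at 14.6 FPKM at 48 h and 5.63 at 24 h with the extract, against 5.08 at 48 h and 3.85 at 24 h in the controls, a mean difference of 0.90 (SE 0.27, limma adjusted p 0.157). The extract's libraries lay above the controls for both genes, and its 48 h library far above its 24 h library. PSMB9 was at 11.5 FPKM at 48 h and 6.71 at 24 h with the extract, against 3.30 at 48 h and 2.62 at 24 h in the controls. The PSMB9 difference was 1.31 (SE 0.21) with a limma adjusted p of 0.0653, and it passed the edgeR quasi-likelihood test at 0.0375 and limma voom at 0.0458.

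TAP1 is the transporter subunit gene whose RefSeq start stands back to back with that of PSMB9. With the 76 3P extract it was at 11.6 FPKM at 48 h and 12.3 at 24 h. In the controls it was at 6.26 at 48 h and 7.41 at 24 h. The groups did not overlap, and the mean difference was 0.73 (SE 0.19, limma adjusted p 0.128). TAP2 had 5.27 FPKM at 48 h and 6.46 at 24 h with the extract, against 3.84 at 48 h and 4.94 at 24 h in the controls, a difference of 0.35 (SE 0.18). HLA-E was at 242.9 FPKM at 48 h and 144 at 24 h with the extract, against 129.9 at 48 h and 112 at 24 h in the controls, a difference of 0.63 (SE 0.24, limma adjusted p 0.232). HLA-C at 0.54 (SE 0.28) and B2M at 0.34 (SE 0.27) had extract libraries above both controls as well. TAPBP did not: it was at 40.4 FPKM at 48 h and 69.9 at 24 h with the extract, against 49.0 at 48 h and 48.1 at 24 h in the controls. The lowest and the second highest TAPBP values of the 8 libraries were thus those of the 76 3P extract, at 48 h and at 24 h.

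For the 76 3P extract limma passed 0 of the 9 genes and 0% of all genes tested, and edgeR and limma voom each passed 1, PSMB9, against 0.844% and 0.717% of all genes. At an unadjusted p under 0.05 were 5 of the 9, HLA-B, HLA-E, HLA-F, TAP1 and PSMB9, all higher, against 8.25% of all genes that were higher at that level. The 2 extract libraries lay above both controls for 8 of 9 genes, against 22.4% of all genes. The median difference was 0.63 for the 9 genes and -0.05 for all genes tested. Fitted to its own 4 libraries, this comparison passed PSMB9 alone of the 9 (limma adjusted p 0.0299), against 2.15% of all genes. Without the extract's 24 h library 3 of the 9 passed limma, against 6% of all genes (803 of 13388), HLA-B at 1.66 (adjusted p 0.0358), HLA-F at 1.36 (adjusted p 0.0297) and PSMB9 at 1.47 (adjusted p 0.0266), where the lone 48 h library is assumed to vary like the other groups. Both comparisons share the control libraries, and the mean differences of HLA-B, HLA-F and PSMB9 from them were 1.58, 1.06 and 1.25 with the 74 3NP extract and 1.19, 0.90 and 1.31 with the 76 3P extract.

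**Figure D2:**
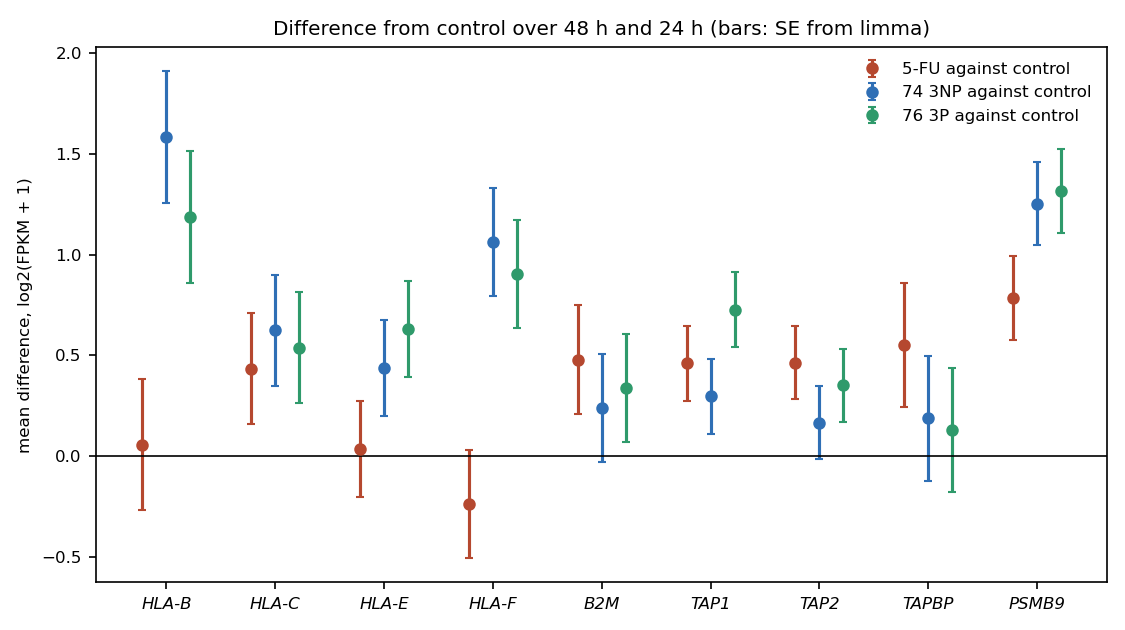
Mean difference from control over both times (vertical axis, log2(FPKM + 1) scale) for each of the 9 genes, with points for 5-FU, the 74 3NP extract and the 76 3P extract and bars of 1 SE from limma, n = 2 libraries a group. HLA-B, HLA-F and PSMB9 lie highest for both extracts, while HLA-B at 0.06 and HLA-E at 0.04 lie near 0 for 5-FU.

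CD14, a monocyte marker among the 8 leukocyte markers, was also higher with the extracts, at 6.41 FPKM at 48 h and 6.49 at 24 h with the 74 3NP extract and 9.83 at 48 h and 3.34 at 24 h with the 76 3P extract, against 1.85 at 48 h and 0.671 at 24 h in the controls. Its differences were 1.77 (SE 0.29, limma adjusted p 0.104) and 1.65 (SE 0.29, limma adjusted p 0.0774). EdgeR passed 1 of the 2 leukocyte markers tested with the 76 3P extract, against 0.844% of all genes. The summed level of the leukocyte markers, most of it LYZ, was 608 FPKM at 48 h and 505 at 24 h with the 74 3NP extract and 226 at 48 h and 236 at 24 h with the 76 3P extract, against 386 at 48 h and 346 at 24 h in the controls. CD2 and MS4A1 were listed at 0 in all 8 libraries, and PTPRC, the pan-leukocyte marker, was at 0.00654 FPKM or less. Fibroblast markers, nearly all of it COL1A1, summed to 3.51 FPKM at 48 h and 4.16 at 24 h with the 74 3NP extract and 6.21 at 48 h and 2.53 at 24 h with the 76 3P extract, against 1.36 at 48 h and 1.08 at 24 h in the controls. The other 3 of the 4 stayed under 1 FPKM, 1 of them at 0 in all 8 libraries. COL1A1 differed by 1.12 (SE 0.29, limma adjusted p 0.236) and 1.19 (SE 0.29, limma adjusted p 0.122). Endothelial markers summed to 0.250 FPKM at 48 h and 0.367 at 24 h with the 74 3NP extract and 0.541 at 48 h and 0.0689 at 24 h with the 76 3P extract, against 0.0701 at 48 h and 0.0177 at 24 h in the controls. Epithelial markers summed to 2421 FPKM at 48 h and 2527 at 24 h with the 74 3NP extract. The sums were 1454 at 48 h and 1846 at 24 h with the 76 3P extract. In the controls they were 2092 at 48 h and 2243 at 24 h. Their median differences were 0.11 with the 74 3NP and -0.35 with the 76 3P extract. CDX2 differed by 1.33 (SE 0.22, limma adjusted p 0.109) and 0.76 (SE 0.22). KRT20 differed by -0.37 (SE 0.41) and -1.13 (SE 0.41). The part of CD14-expressing or other cells in the differences of the 9 genes was not tested.

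With 5-FU the values of the 9 genes were ordered otherwise than with the extracts, a difference that was not tested. PSMB9 stood highest, and the transporter genes TAP1 and TAP2 were above control at both times, while the 4 heavy chain genes lay below control at 24 h and, except for HLA-F, above it at 48 h. PSMB9 was at 7.74 FPKM at 48 h and 4.28 at 24 h with 5-FU, against 3.30 at 48 h and 2.62 at 24 h in the controls, a mean difference of 0.78 (SE 0.21, limma adjusted p 0.0608). TAP1 was at 10.3 FPKM at 48 h and 9.28 at 24 h with 5-FU, against 6.26 at 48 h and 7.41 at 24 h in the controls, a difference of 0.46 (SE 0.19, limma adjusted p 0.147). TAP2 was at 6.54 FPKM at 48 h and 6.24 at 24 h with 5-FU, against 3.84 at 48 h and 4.94 at 24 h in the controls, with a difference of 0.46 (SE 0.18, limma adjusted p 0.139). None of these 3 genes had overlapping groups. TAPBP was at 88.9 FPKM at 48 h and 57.6 at 24 h with 5-FU, against 49.0 at 48 h and 48.1 at 24 h in the controls. It too was higher in both 5-FU libraries, by 0.55 (SE 0.31).

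The heavy chains with 5-FU differed between the times. HLA-B was at 23.3 FPKM at 48 h and 9.21 at 24 h, against 15.9 at 48 h and 12.6 at 24 h in the controls, and HLA-E at 168 FPKM at 48 h and 91.2 at 24 h, against 129.9 at 48 h and 112 at 24 h. Their mean differences of 0.06 (SE 0.33) and 0.04 (SE 0.24) turn negative with scaling to total reads, at -0.06 and -0.08, and with quantile normalization, at -0.06 and -0.25. HLA-C was at 128 FPKM at 48 h and 56.2 at 24 h with 5-FU, against 66.3 at 48 h and 59.1 at 24 h in the controls, a mean of 0.43 (SE 0.28). HLA-F was at 4.61 FPKM at 48 h and 2.78 at 24 h with 5-FU, against 5.08 at 48 h and 3.85 at 24 h in the controls, with a mean of -0.24 (SE 0.27). B2M was at 349 FPKM at 48 h and 179.7 at 24 h with 5-FU, against 183 at 48 h and 176 at 24 h in the controls, a mean of 0.48 (SE 0.27). The 5-FU 48 h library thus held the highest HLA-C, B2M, TAP2 and TAPBP values of the 8 libraries, and the 5-FU 24 h library the lowest HLA-B, HLA-C, HLA-E and HLA-F values.

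Of the 9 genes, limma passed 0 with 5-FU, against 5.53% of all genes tested, and the edgeR quasi-likelihood test and voom passed 0, against 8.27% and 8.01%. TAP1, TAP2 and PSMB9 had an unadjusted p under 0.05, 3 of 9, all higher, against 14.8% of all genes that were higher at that level. Both 5-FU libraries lay above both controls for 4 of the 9, PSMB9, TAP1, TAP2 and TAPBP, against 32.7% of all genes tested. The median was 0.46 for the 9 and 0.0033 for all genes. Without the 5-FU 24 h library 3 of the 9 passed limma, against 19.3% of all genes (2589 of 13388). They were HLA-C at 0.87 (adjusted p 0.0443), B2M at 0.88 (adjusted p 0.0415) and PSMB9 at 0.96 (adjusted p 0.038), and here too the lone 48 h library is assumed to vary like the other groups. With a filter at FPKM 5 in place of 1, PSMB9 passed for 5-FU (adjusted p 0.048), as did 11.3% of the 8059 genes then tested, and for the 76 3P extract (adjusted p 0.0281), as did 1.99%.

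**Figure D3:**
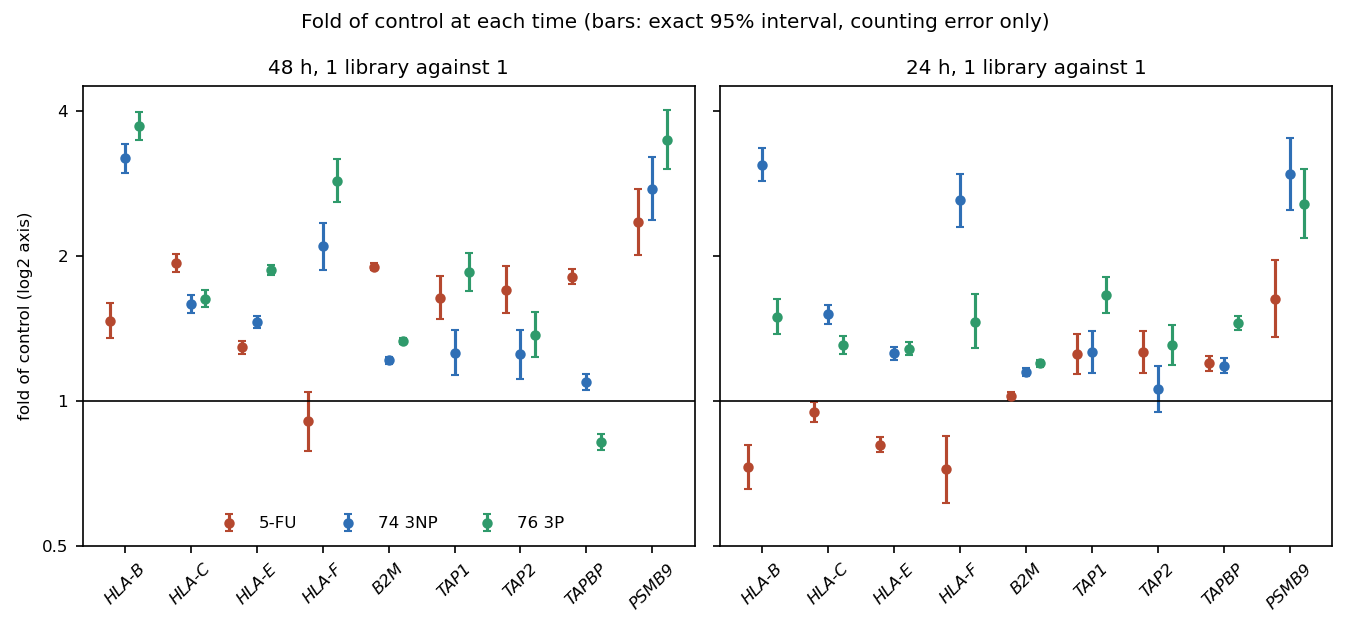
Fold of control at 48 h and at 24 h (vertical axis, log2-scaled) for each of the 9 genes with 5-FU, the 74 3NP extract and the 76 3P extract, 1 library against 1, with exact 95% intervals that cover counting error only. With the 74 3NP extract HLA-B lies at 3.18 at 48 h and 3.09 at 24 h and HLA-F at 2.09 at 48 h and 2.61 at 24 h, while the heavy chains with 5-FU and HLA-B and HLA-F with the 76 3P extract stand higher at 48 h.

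Set against each other over both times, the extracts had their largest mean difference of the 9 genes in TAP1, while at 24 h alone HLA-B and HLA-F lay farther apart. TAP1 was at 7.90 FPKM at 48 h and 9.37 at 24 h with the 74 3NP extract, against 11.6 at 48 h and 12.3 at 24 h with the 76 3P extract, a difference of -0.43 (SE 0.19, limma adjusted p 0.386). TAP1 and TAP2 were the 2 of 9 genes whose 74 3NP libraries both lay below both 76 3P libraries, against 19.1% of all genes tested, and 0 of 9 lay above, against 22.9%. Limma, edgeR and voom passed 0 of the 9, against 0%, 0.0598% and 0.112% of all genes, and TAP1 alone had an unadjusted p under 0.05, lower, against 5.57% of all genes that were lower at that level. HLA-B differed by 0.39 (SE 0.33), HLA-F by 0.16 (SE 0.27), PSMB9 by -0.06 (SE 0.21) and HLA-E by -0.19 (SE 0.24). The median was -0.06 for the 9 genes and 0.03 for all genes. HLA-B stood at 0.858 of its 76 3P level at 48 h (exact 95% interval 0.818 to 0.899) and at 2.06 times that level at 24 h (1.94 to 2.20).

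Between the times, 6 of the 9 genes were higher at 48 h in all 4 treatments, against 9.05% of all genes tested. They were the 4 heavy chain genes, B2M and PSMB9. The transporter and loading genes were not among them: TAP1 and TAP2 were higher at 48 h with 5-FU alone, and TAPBP with 5-FU and in the controls. With treatment as a term, HLA-B differed by 0.88 (SE 0.23, limma adjusted p 0.402), HLA-E by 0.56 (SE 0.17, limma adjusted p 0.404), HLA-F by 0.55 (SE 0.19), HLA-C by 0.51 (SE 0.20) and PSMB9 by 0.47 (SE 0.15). B2M was at 0.34 (SE 0.19), TAPBP at -0.05 (SE 0.22), TAP1 at -0.09 (SE 0.13) and TAP2 at -0.15 (SE 0.13). Limma passed 0 of the 9 for time, as did edgeR and voom, and each passed 0% of all genes tested. The 4 heavy chain genes and PSMB9 had an unadjusted p under 0.05, against 4.92% of all genes that were higher at that level. In the controls the fold of 48 h over 24 h was 1.26 for HLA-B (exact 95% interval 1.15 to 1.38), 1.12 for HLA-C, 1.16 for HLA-E, 1.32 for HLA-F, 1.05 for B2M and 1.26 for PSMB9. With the 76 3P extract it was 3.12 for HLA-B (2.95 to 3.30), 2.58 for HLA-F (2.36 to 2.82) and 0.578 for TAPBP (0.559 to 0.597), and with 5-FU it was 2.53 for HLA-B (2.30 to 2.79), 2.28 for HLA-C (2.18 to 2.38) and 1.94 for B2M (1.91 to 1.97). The median was 0.47 for the 9 genes and -0.01 for all genes.

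**Figure D4:**
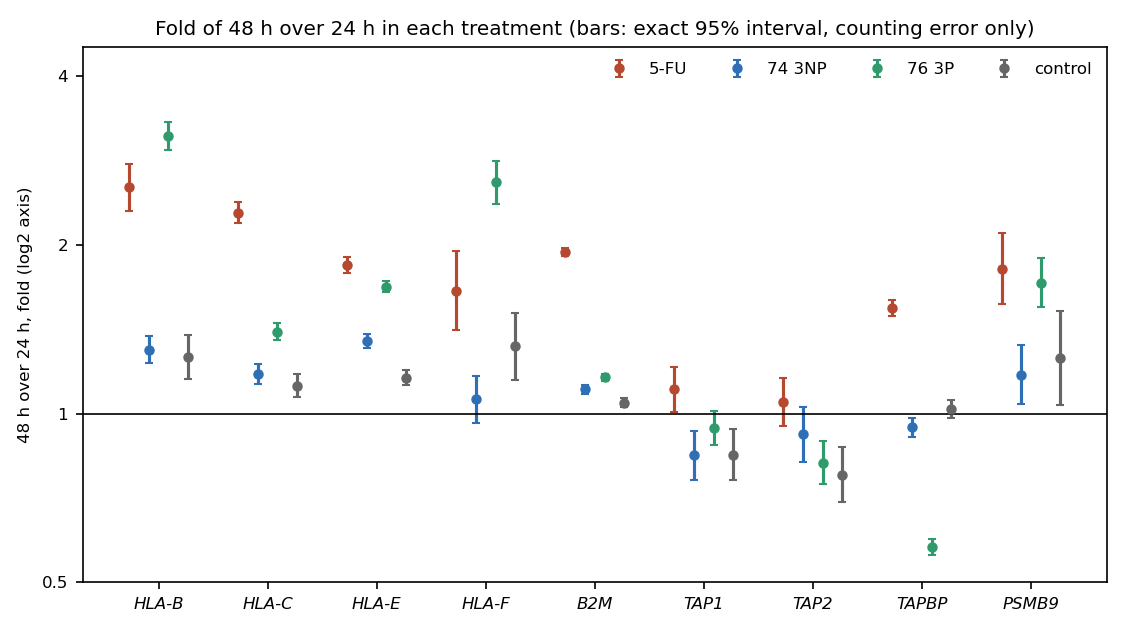
Fold of 48 h over 24 h (vertical axis, log2-scaled) for each of the 9 genes within each of the 4 treatments, 1 library against 1, with exact 95% intervals that cover counting error only. The heavy chain genes, B2M and PSMB9 lie above 1 in all 4 treatments, and TAPBP lies at 0.578 with the 76 3P extract and 1.54 with 5-FU.

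Ratios within a library do not depend on how libraries were scaled to each other. They do depend on the gene lengths used, so their size is approximate and they are read for differences between libraries. HLA-B was at 0.480 of the HLA-C level at 48 h and 0.435 at 24 h with the 74 3NP extract, and at 0.545 at 48 h and 0.244 at 24 h with the 76 3P extract. It was at 0.182 at 48 h and 0.164 at 24 h with 5-FU, against 0.239 at 48 h and 0.213 at 24 h in the controls. HLA-B thus stood closer to HLA-C in both 74 3NP libraries and in the 76 3P 48 h library, and farther from it in both 5-FU libraries. HLA-B as a share of B2M was 22.7% at 48 h and 19.3% at 24 h with the 74 3NP extract, 24.1% at 48 h and 8.96% at 24 h with the 76 3P extract and 6.67% at 48 h and 5.12% at 24 h with 5-FU, against 8.64% at 48 h and 7.17% at 24 h in the controls. HLA-E reached 99.4% of the B2M level at 48 h with the 76 3P extract, and its share was 48.1% at 48 h and 50.8% at 24 h with 5-FU, against 70.8% at 48 h and 63.9% at 24 h in the controls.

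The ratio of PSMB9 to PSMB8, another interferon-inducible catalytic subunit of the immunoproteasome, was higher in all 6 treated libraries than in the controls, while PSMB8 lay between 8.06 and 10.9 FPKM in all 8. The ratio was 0.754 at 48 h and 0.531 at 24 h with 5-FU, 0.833 at 48 h and 0.815 at 24 h with the 74 3NP extract and 1.13 at 48 h and 0.785 at 24 h with the 76 3P extract, against 0.339 at 48 h and 0.266 at 24 h in the controls. Set against PSMB6, the constitutive subunit whose place PSMB9 takes, the ratio was 0.0673 at 48 h and 0.0843 at 24 h with 5-FU, 0.204 at 48 h and 0.206 at 24 h with the 74 3NP extract and 0.396 at 48 h and 0.168 at 24 h with the 76 3P extract, against 0.102 at 48 h and 0.0789 at 24 h in the controls. PSMB6 was at 115 FPKM at 48 h and 50.7 at 24 h with 5-FU, against 32.4 at 48 h and 33.2 at 24 h in the controls. The TAP1 to TAP2 ratio was 2.20 at 48 h and 1.90 at 24 h with the 76 3P extract, against 1.63 at 48 h and 1.50 at 24 h in the controls, and lay between 1.49 and 1.79 in the 5-FU and 74 3NP libraries.

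**Figure D5:**
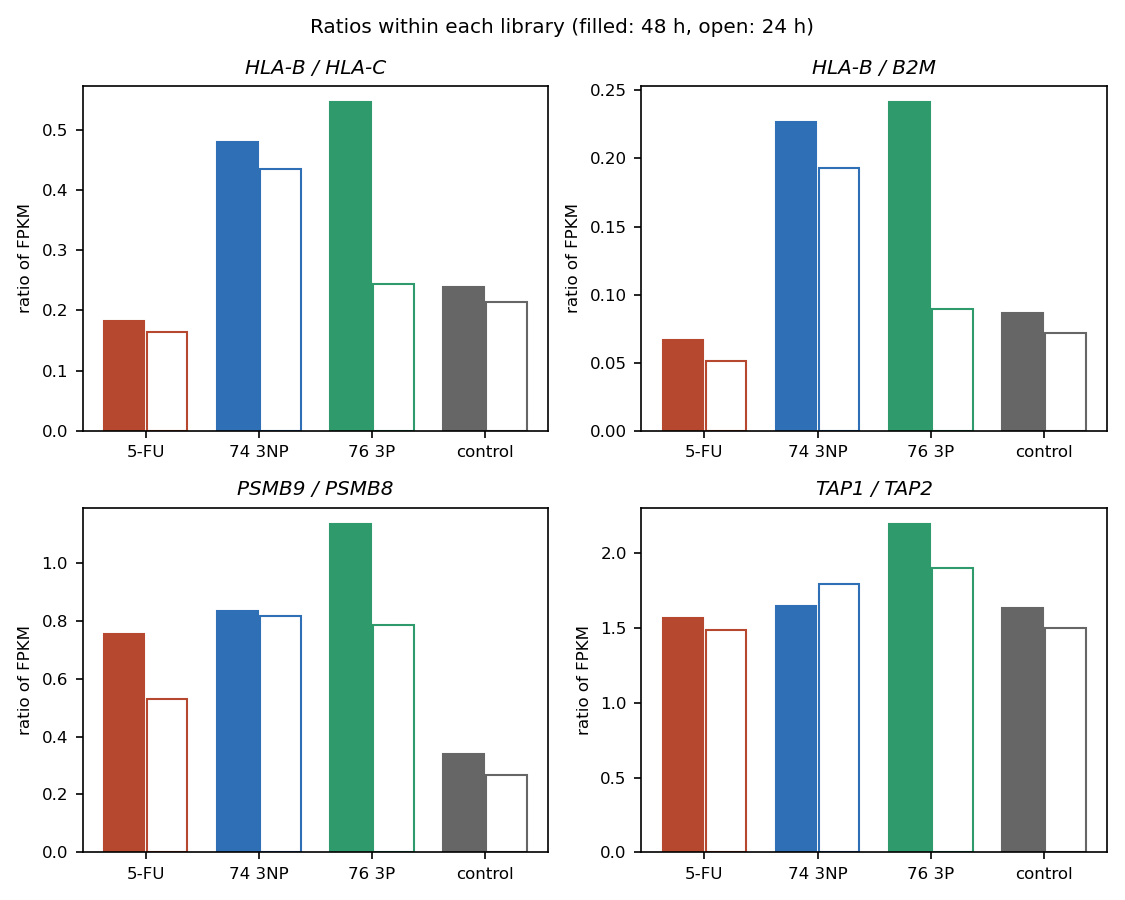
FPKM ratios within each library (vertical axes, linear, from 0) for HLA-B to HLA-C, HLA-B to B2M, PSMB9 to PSMB8 and TAP1 to TAP2, by treatment, with filled bars for 48 h and open bars for 24 h. The PSMB9 to PSMB8 ratio lies above both controls in all 6 treated libraries, from 0.531 to 1.13 against 0.339 and 0.266.

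Other genes of the pathway were counted from lists of known roles. Of 6 further immunoproteasome and activator genes, limma passed 0 in any of the 5 comparisons. At an unadjusted p under 0.05 were 2 with 5-FU, both higher, and 1 with each extract, PSMB10, lower. Of all 13388 genes tested, 1987 were higher at that level with 5-FU, and 685 and 1251 lower with the 74 3NP and 76 3P extracts. EdgeR and voom each passed 1 with 5-FU, PSME2, against 8.27% and 8.01% of all genes. PSMB10, the third inducible catalytic subunit, was at 4.31 FPKM at 48 h and 5.23 at 24 h with the 74 3NP extract and at 3.45 at 48 h and 6.81 at 24 h with the 76 3P extract, against 8.97 at 48 h and 9.12 at 24 h in the controls. Its differences were -0.81 (SE 0.29) and -0.77 (SE 0.29), with limma adjusted p-values of 0.344 and 0.225. PSME2, a subunit of the PA28 proteasome activator, stood at 1.12 (SE 0.27, limma adjusted p 0.0507) and the assembly factor gene POMP at 0.86 (SE 0.30) with 5-FU, and the constitutive subunit genes PSMB6 and PSMB7 at 1.20 (SE 0.35) and 0.58 (SE 0.27). Of the 3 constitutive subunit genes limma passed 0, PSMB6 alone had an unadjusted p under 0.05, with 5-FU, and edgeR passed it there. With the 74 3NP extract PSME2 stood at 0.28, PSMB6 at 0.31 and PSMB7 at 0.11, and with the 76 3P extract PSME3 stood at -0.50, PSMB5 at -0.34 and PSMB7 at -0.13.

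Of 10 genes of loading and peptide trimming in the endoplasmic reticulum, 9 were tested and limma, edgeR and voom passed 0. Unadjusted p-values under 0.05 were found for 2 with 5-FU, 0 with the 74 3NP extract and 2 with the 76 3P extract, all higher. The shares of all genes that were higher at that level were 14.8%, 7.01% and 8.25%. With the 76 3P extract the chaperone gene HSPA5 was at 1386 FPKM at 48 h and 340 at 24 h, against 232 at 48 h and 192 at 24 h in the controls, a difference of 1.70 (SE 0.47, limma adjusted p 0.145). CALR, the gene of the loading chaperone calreticulin, was at 758 FPKM at 48 h and 289.8 at 24 h with that extract, against 302 at 48 h and 187 at 24 h in the controls, a difference of 0.98 (SE 0.34). With 5-FU CALR stood at 1.03 (SE 0.34) and the channel gene SEC61A1 at 0.91 (SE 0.29), and with the 74 3NP extract CALR stood at 0.44 and the calnexin gene CANX at -0.30. The medians of the 9 tested genes were 0.17 with 5-FU, -0.06 with the 74 3NP extract and 0.36 with the 76 3P extract.

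Among 15 genes of transcription regulators of class I, limma, edgeR and voom passed 0 in any of the 5 comparisons. With no adjustment, p was under 0.05 for 1 higher and 2 lower with 5-FU, 0 with the 74 3NP extract and 1 higher and 2 lower with the 76 3P extract. Of all 13388 genes tested, 1987 were higher and 1898 lower at that level with 5-FU. With the 74 3NP extract 938 were higher and 685 lower, and with the 76 3P extract 1105 higher and 1251 lower. NLRC5, the transactivator of class I genes, lay between 0.501 and 1.44 FPKM, and its highest library was the control at 24 h. IRF1, a transcription factor that binds interferon-response elements, was at 13.0 FPKM at 48 h and 5.27 at 24 h with the 76 3P extract, against 4.13 at 48 h and 4.92 at 24 h in the controls, a difference of 0.76 (SE 0.31, limma adjusted p 0.254). With the 74 3NP extract it was at 0.16 (SE 0.31). NFYB, a subunit of the factor that binds the Y box, stood at -0.65 with 5-FU, -0.38 with the 74 3NP extract and -0.78 with the 76 3P extract, RFXAP at -0.89 with 5-FU and ATF1 at -0.40 with the 74 3NP extract, none past the test.

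Of 11 interferon receptor and signalling genes, 9 were tested, and limma passed 2 with 5-FU and 0 in the other 4 comparisons, as did edgeR and voom. With 5-FU these tests passed 5.53%, 8.27% and 8.01% of all genes. Unadjusted p-values under 0.05 were found for 1 with the 74 3NP extract, IFNGR1, higher, and 2 higher and 1 lower with the 76 3P extract. Of all 13388 genes tested, 938 were higher at that level with the 74 3NP extract. With the 76 3P extract 1105 were higher and 1251 lower. STAT2, which carries the type I interferon signal, fell with 5-FU to 3.49 FPKM at 48 h and 3.99 at 24 h, against 9.33 at 48 h and 9.42 at 24 h in the controls, a difference of -1.13 (SE 0.18, limma adjusted p 0.0290). SOCS3, a feedback inhibitor of cytokine signalling, was at 6.16 FPKM at 48 h and 2.80 at 24 h with 5-FU, against 1.71 at 48 h and 0.977 at 24 h in the controls, and rose by 1.17 (SE 0.26, limma adjusted p 0.0447). IFNGR1, an interferon-gamma receptor chain, stood at 0.74 (SE 0.21) with the 74 3NP extract, and the feedback inhibitor gene SOCS1 at 0.35, and with the 76 3P extract SOCS1 stood at 0.86 (SE 0.33) and SOCS3 at 0.72 (SE 0.26), none past the test.

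Class I-like genes, whose products resemble class I heavy chains, had 15 members, 12 of them tested. Limma passed 3 with 5-FU, all ligands of the natural killer receptor NKG2D, against 5.53% of all genes tested. ULBP2 rose by 1.57 (SE 0.23, limma adjusted p 0.0257), to 40.3 FPKM at 48 h and 26.4 at 24 h with 5-FU, against 11.2 at 48 h and 9.49 at 24 h in the controls. RAET1L rose by 1.42 (SE 0.21, limma adjusted p 0.0257) and ULBP3 by 1.11 (SE 0.20, limma adjusted p 0.0315). Of the 12, MICB, RAET1G and MR1 were under 1 FPKM in both controls and passed the filter through other libraries alone, so no further count is drawn from this list. AZGP1 stood at 1.32 (SE 0.41) with the 74 3NP extract and 1.22 (SE 0.41) with the 76 3P extract, neither past the test. The NKG2D ligand gene MICB was at 1.66 FPKM at 48 h and 1.54 at 24 h with the 74 3NP extract and 4.16 at 48 h and 0.935 at 24 h with the 76 3P extract, against 0.375 at 48 h and 0.445 at 24 h in the controls. The 5 calls with 5-FU are lost without the control 48 h or 24 h library, the 5-FU 48 h library or either 74 3NP library, where ULBP2 stood at 1.62, 1.53, 1.28, 1.57 and 1.57 and STAT2 at -1.03, -1.23, -1.13, -1.13 and -1.13. Without those libraries in the same order SOCS3 stood at 0.96, 1.39, 1.08, 1.17 and 1.17, RAET1L at 1.19, 1.66, 1.24, 1.42 and 1.42, and ULBP3 at 0.91, 1.31, 1.11, 1.11 and 1.11. With no filter on low values all 5 calls are lost, and SOCS3 also loses its own with a pseudocount of 5, a filter at FPKM 5, each of 3 other scalings, no time term or without the 5-FU 24 h library, with adjusted p-values of 0.0509 to 0.143, and ULBP3 with no time term (adjusted p 0.0582).

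Of 12 HLA class II and loading genes 2 were tested, HLA-DMA and the invariant chain gene CD74. Limma, edgeR and voom did not pass HLA-DMA in any of the 5 comparisons. It stood at 0.54 (SE 0.17) with 5-FU, 0.41 with the 74 3NP extract and -0.06 with the 76 3P extract. CD74 was at 1.59 FPKM at 48 h and 0.395 at 24 h with the 74 3NP extract and 2.13 at 48 h and 0.171 at 24 h with the 76 3P extract, against 0.128 at 48 h and 0.0289 at 24 h in the controls. It passed the filter through the 48 h libraries of the extracts alone, so no test is drawn from it.

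For the 4 genes with the widest range, the genes of most similar pattern were found among 9488 other protein-coding genes with a mean FPKM of 2 or more, by the root mean square distance of profiles over the 8 libraries on the log2(FPKM + 1) scale, each centred on its own mean. For HLA-B they were ALDH3B2 at a distance of 0.252, ATP6V1C2 at 0.258, HCFC1R1 at 0.285, KISS1 at 0.285 and EGFL7, against a median distance of 0.953 over all candidates. For HLA-F they were ERN2 at 0.126, NFE2L3, MEIS3, KLK8 and KISS1, with a median of 0.758 over all. For PSMB9 they were GDPD5 at 0.166, QPCT, TNIP1, RTN2 and HAPLN3, and for HLA-E TMEM120A at 0.121, DDAH2, C20orf96, TBC1D3L and PLD3. KISS1 stood in the lists of both HLA-B and HLA-F, which lay at 0.277 from each other. ERN2 was at 8.92 FPKM at 48 h and 8.26 at 24 h with the 74 3NP extract and 10.8 at 48 h and 4.81 at 24 h with the 76 3P extract, against 5.03 at 48 h and 3.05 at 24 h in the controls. These distances describe 8 libraries and carry no test.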

How the data were processed

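RNA of 8 libraries was sequenced on an Illumina platform and filtered reads were mapped with HISAT2 2.0.5 to human build GRCh38 (hg38), per the labels and the submitters' processing notes. Neither names the counting tool, annotation release or strand setting. The authors deposited FPKM values with gene lengths, per the file headers. Their second table holds counts of reads, and percent base quality and GC content, as deposited for each library.

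FPKM was multiplied by gene length and divided by the smallest nonzero product of the library, which was taken as 1 read. This gave whole numbers for 100% of nonzero values, within 0.01 reads. A gene was tested where 2 or more of 8 libraries reached FPKM 1, so a gene low in the controls can pass through treated libraries alone. Limma 3.58.1 (R 4.3.3) was fitted to log2(FPKM + 1), where the pseudocount of 1 understates changes of low genes. The model held additive terms for treatment and for time over all 8 libraries, with a variance trend, 3 residual degrees of freedom and a prior of 5.39 (median). All 4 treatments share its spread, which also holds any treatment difference that changes with time. The 5 comparisons were two-sided, each with Benjamini-Hochberg adjustment and a threshold of 0.05. Folds at 1 time are ratios of reads in the deposited scaling with exact 95% Clopper-Pearson intervals, for counting error only. EdgeR 4.0.16 (quasi-likelihood) and limma voom were run on the recovered reads. The statistics were tested on simulated data. Tables and plots used Python 3.11.15 (matplotlib 3.10.9, pandas 2.3.3, scipy 1.17.1, numpy 2.4.6).

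The 9 genes and all lists were chosen with earlier results of these data known. Named from each list were genes past the test, up to the 4 with the largest differences per comparison, and otherwise the 2 with the largest difference in the comparison described. NLRC5 and PSMB8, and values of named genes in further comparisons, were chosen after they were seen.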

Additional observations from a re-analysis of the deposited data

Results flagged for a closer look

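In 8 results a gene's difference pointed one way at 48 h and the other way at 24 h, with both exact 95% intervals of the read ratio, 1 library against 1, away from 1. The difference between the times was not tested, and the intervals cover counting error only.

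With 5-FU 3 heavy chain genes were above control at 48 h and below it at 24 h. HLA-B was at 1.47 of control at 48 h and 0.731 at 24 h, HLA-C at 1.93 at 48 h and 0.951 at 24 h, and HLA-E at 1.29 at 48 h and 0.813 at 24 h. The HLA-C interval at 24 h, 0.905 to 0.998, came closest to 1.

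TAPBP with the 76 3P extract was at 0.824 of control at 48 h and 1.45 at 24 h. Between the extracts, with the 74 3NP extract over the 76 3P extract, HLA-B was at 0.858 at 48 h and 2.06 at 24 h, HLA-F at 0.731 at 48 h and 1.78 at 24 h, PSMB9 at 0.791 at 48 h and 1.15 at 24 h, and TAPBP at 1.33 at 48 h and 0.815 at 24 h. The mitochondrial share of reads was 5.52% at 48 h and 4.62% at 24 h with 5-FU, 4.07% at 48 h and 3.12% at 24 h with the 74 3NP extract and 6.83% at 48 h and 2.98% at 24 h with the 76 3P extract, against 3.18% at 48 h and 2.96% at 24 h in the controls, and its part in these results was not tested.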

How the results depend on the processing

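The count of the 9 genes past limma was 0 in all 5 comparisons and stayed 0 for time and between the extracts under every alternative run. With a filter at FPKM 5 it was 1 for 5-FU and 1 for the 76 3P extract, where 914 and 160 of 8059 genes passed. On only the 4 libraries compared it was 4 for the 74 3NP extract and 1 for the 76 3P extract, where 1344 and 288 of 13388 genes passed (10% and 2.15%). The edgeR and voom tests each gave 1 for the 76 3P extract. Leaving out 1 library gave 0 to 3 for 5-FU, 0 to 1 for the 74 3NP extract and 0 to 3 for the 76 3P extract. Without the 76 3P 24 h library 803 genes passed for the 76 3P extract and 107 for the 74 3NP extract, against 0 and 7 with all libraries. The shared time of libraries is the replicate block of the fit, and with no replicate block (the time term, or the treatment term for the times, left out) the count was 0 in all 5 comparisons. Over all genes, the 740 calls for 5-FU became 394 without that block and 0 with no filter or without the control 48 h, control 24 h or 5-FU 48 h library. They became 20 without either 74 3NP library, 2589 without the 5-FU 24 h library and 1203 on only the 4 libraries compared. No scaling moved the median of all genes by over 0.1.

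Of 891 values for the 9 genes under alternatives, 851 kept their direction and side of the threshold, 16 came to pass and 24 changed sign. Of 853 for the named list genes, 775 kept both, 30 came to pass, 38 no longer passed and 10 changed sign. These counts include CD74, from which no test is drawn. The cause was not tested. With 5-FU, HLA-B was at -0.056 and HLA-E at -0.0817 with scaling to total reads, and at -0.0598 and -0.25 with quantile normalization, and CD74 at -0.00698 with edgeR and -0.0769 with voom. With quantile normalization PSMB7 was at -0.0408 with the 74 3NP extract, and, between the extracts, HLA-C at -0.0468 and TAPBP at -0.12. TAPBP between the extracts was also at -0.00388 with scaling to total reads and -0.014 with edgeR.

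Results whose sign changed when 1 library was left out, CD74 aside, had these ranges. Lowest to highest, they were HLA-B at -0.32 to 0.44, HLA-E at -0.20 to 0.27, CD74 at -0.34 to 0.37 and HLA-C at -0.0076 to 0.87 for 5-FU. They were SOCS1 at -0.24 to 0.95 and CALR at -0.12 to 1.00 for the 74 3NP extract. They were TAPBP at -0.35 to 0.61, PSMB5 at -0.79 to 0.11, PSMB7 at -0.54 to 0.28 and HLA-DMA at -0.14 to 0.024 for the 76 3P extract. They were HLA-C at -0.10 to 0.27, HLA-F at -0.29 to 0.61, B2M at -0.23 to 0.037, PSMB9 at -0.24 to 0.11, HLA-B at -0.0801 to 0.87 and TAPBP at -0.43 to 0.54 between the extracts. They were TAPBP at -0.28 to 0.19 between the times.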
